A study of Mus musculus with 20 samples.

Results

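Hearts of control mice were compared 4 weeks after transverse aortic constriction (TAC) and 4 weeks after a sham operation, over all genes measured. TAC ties the aorta narrower, so that the left ventricle pumps against a raised load. The comparison rests on 4 of the 20 hearts of the series, the TAC hearts labelled 1 and 2 and the sham hearts labelled 6 and 7. They were chosen by their labels alone, and 12589 of 23284 listed genes, those whose FPKM averaged 0.5 or more across the 20 hearts, were tested. FPKM is the number of sequenced fragments scaled by transcript length and by the size of the library, so levels of different genes can be set side by side.

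All mice were C57BL/6. The control mice had floxed Wnt5a alleles and no Cre transgene on their label. The other genotype, called CKO here, had the floxed alleles together with Myh6-Cre/Esr 1, a Cre recombinase fused to part of the oestrogen receptor, driven by a heart muscle promoter and switched on by tamoxifen. A further stage of the series was sampled when tamoxifen treatment ended, in both genotypes. No control group with the Cre transgene but without floxed Wnt5a was analysed here, so effects of the transgene and of Wnt5a loss cannot be told apart in CKO hearts. The labels give the tissue as heart and name no chamber, sex or age. The 2 further comparisons used below are TAC against sham in control hearts at 2 weeks (TAC hearts 11 and 32, sham hearts 12 and 16) and in CKO hearts at 4 weeks (TAC hearts 3 and 41, sham hearts 4 and 8), and neither shares a heart with the comparison at 4 weeks in controls.

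A heart under pressure load thickens. Its muscle cells switch on genes of the fetal heart, such as those of the natriuretic peptides and of skeletal alpha-actin, and add Z-disc proteins that hold sarcomeres and sense stretch. Fibroblasts between the muscle cells turn into matrix-producing cells, and the muscle's use of fatty acids as fuel falls. These are known features of pressure overload, given here as background.

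The promoters of 4 heart muscle genes are shown first, because these genes are usual markers of load and all of them rose. Each stretch is the 250 bases before the RefSeq start of the gene on build GRCm38.p6, in the direction of transcription. Capitals mark an MCAT box, the letters CATTCC on either strand (GGAATG where it lies on the other strand), and a CArG box. MCAT boxes are bound by TEAD factors, the partners of YAP, and CArG boxes by serum response factor.
Acta1 promoter, chr8:123894776-123895025, minus strand: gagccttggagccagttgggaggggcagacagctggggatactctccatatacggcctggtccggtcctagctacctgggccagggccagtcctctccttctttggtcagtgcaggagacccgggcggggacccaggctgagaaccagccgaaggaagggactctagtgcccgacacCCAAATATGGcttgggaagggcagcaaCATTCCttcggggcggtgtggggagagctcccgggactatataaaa
Ankrd1 promoter, chr19:36119845-36120094, minus strand: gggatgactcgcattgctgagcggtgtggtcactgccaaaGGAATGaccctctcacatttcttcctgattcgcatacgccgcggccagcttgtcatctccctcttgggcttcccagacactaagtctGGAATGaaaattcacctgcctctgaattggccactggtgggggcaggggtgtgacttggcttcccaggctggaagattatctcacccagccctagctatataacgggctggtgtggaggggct
Nppa promoter, chr4:148000472-148000721, plus strand: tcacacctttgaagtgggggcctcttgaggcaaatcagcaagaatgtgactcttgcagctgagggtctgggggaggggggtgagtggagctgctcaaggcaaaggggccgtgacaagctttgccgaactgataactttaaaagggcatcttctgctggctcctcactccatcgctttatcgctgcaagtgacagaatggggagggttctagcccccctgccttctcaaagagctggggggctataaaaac
Nppb promoter, chr4:147985650-147985899, plus strand: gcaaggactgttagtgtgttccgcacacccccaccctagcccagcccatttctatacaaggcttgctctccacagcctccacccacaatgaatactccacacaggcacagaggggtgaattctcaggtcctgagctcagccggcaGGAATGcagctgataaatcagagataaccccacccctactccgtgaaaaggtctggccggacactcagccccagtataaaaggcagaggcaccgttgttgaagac
The Acta1 stretch held a CArG box from base 73 to base 64 before the start and an MCAT box from base 46 to base 41. The Ankrd1 stretch held 2 MCAT boxes, which began 210 and 123 bases before the start. The Nppb stretch held 1 MCAT box, beginning at base 105, and the Nppa stretch held neither motif. Among 32851 promoter stretches of 27025 genes of the same length, 12.6% held an MCAT box, 1.02% held 2 or more, 1.47% held a CArG box and 0.186% held both motifs. These matches describe letters in a window, not bound sites.

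All 4 genes rose. Ankrd1, a stretch-responsive protein of the sarcomere and nucleus, stood at 5165 and 4700 FPKM in the TAC hearts and at 620 and 608 FPKM in the sham hearts. Acta1, skeletal alpha-actin, stood at 2193 and 2883 FPKM after TAC and at 75.8 and 109 FPKM after sham. Both TAC hearts lay far above both sham hearts in each gene, and heart 1 was the higher TAC heart for Ankrd1 and heart 2 for Acta1. The rise was 3.00 ± 0.27 for Ankrd1 (log2 difference, SE; 8.03-fold; limma adjusted p = 2.78e-05) and 4.78 ± 0.63 for Acta1 (27.3-fold; limma adjusted p = 0.000464). Folds are on the scale of FPKM + 0.5, which understates changes of genes with low levels.

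The natriuretic peptide genes showed the same separation. Nppa, which encodes atrial natriuretic peptide, measured 3547 and 2761 FPKM in TAC hearts and 216 and 201 FPKM in sham hearts. Nppb, which encodes B-type natriuretic peptide, measured 3380 and 2655 FPKM against 611 and 722 FPKM. Heart 1 was the higher TAC heart in both genes, and groups did not overlap. The log2 differences were 3.91 ± 0.55 (SE; limma adjusted p = 0.000642) and 2.17 ± 0.39 (SE; limma adjusted p = 0.0034). Pam, the enzyme that amidates peptide hormones in atrial granules, rose from 188 and 210 FPKM to 410 and 345 FPKM (limma adjusted p = 0.000632). None of these calls was lost in any alternative processing.

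**Figure D1:**
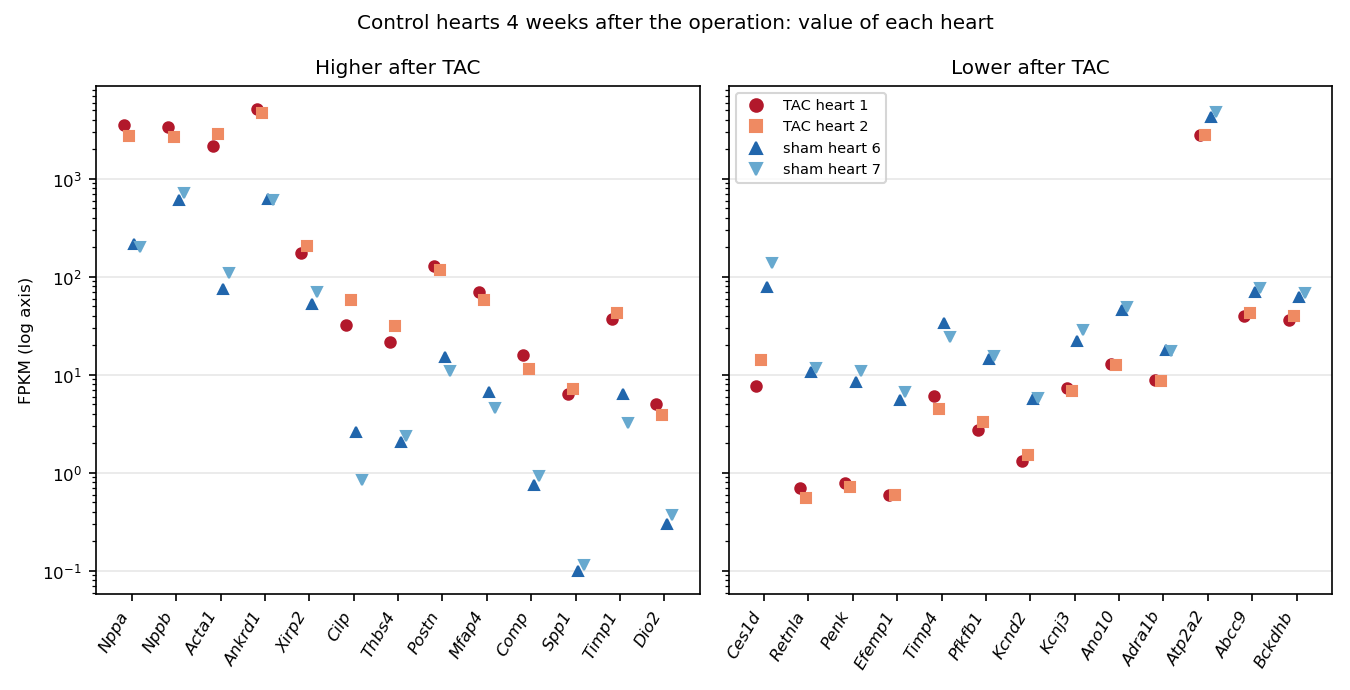
FPKM of each of the 4 control hearts at 4 weeks, on a log axis, for 13 genes that were higher after TAC (left) and 13 that were lower (right); each point is 1 heart. In all 26 genes both TAC hearts lie on one side of both sham hearts, as in each of the 1603 called genes and in 56.7% of all genes tested.

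Across all genes, 1603 of 12589 passed at a limma adjusted p under 0.05, which is 12.7% of those tested. TAC hearts were higher in 801 genes (6.36%) and lower in 802 (6.37%). The median size of a called change was 0.72 on the log2 scale among rises and -0.63 among falls. At least 2-fold changes were made by 236 rises and 136 falls, and at least 4-fold changes by 42 rises and 15 falls. In each of the 1603 genes the 2 TAC hearts lay on one side of the 2 sham hearts; that was also true of 56.7% of all genes tested, and an exact permutation test of 2 hearts against 2 cannot give a two-sided p under 0.333 for a single gene. The labels do not say more of the replicates than that they are separate hearts. The p-values rest on the spread between hearts within groups, pooled over all 10 groups and not taken from these 4 hearts alone.

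The calls depended on how the spread was estimated and on single hearts. A fit of only the 4 hearts called 355 genes, and leaving out heart 1, 2, 6 or 7 left 695, 702, 1053 or 660 calls. Of the 1603 genes, 383 were called without each of the 4 hearts in turn, 203 of them higher and 180 lower. No called gene changed direction under any alternative. Leaving out 1 of the 4 hearts could not turn one, because both TAC hearts lay on one side of both sham hearts in each. The genes named below kept their calls in these and the other alternatives that tested them, unless a sentence says otherwise. Among the alternatives, a filter of mean FPKM at least 3 left out genes of lower level.

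**Figure D2:**
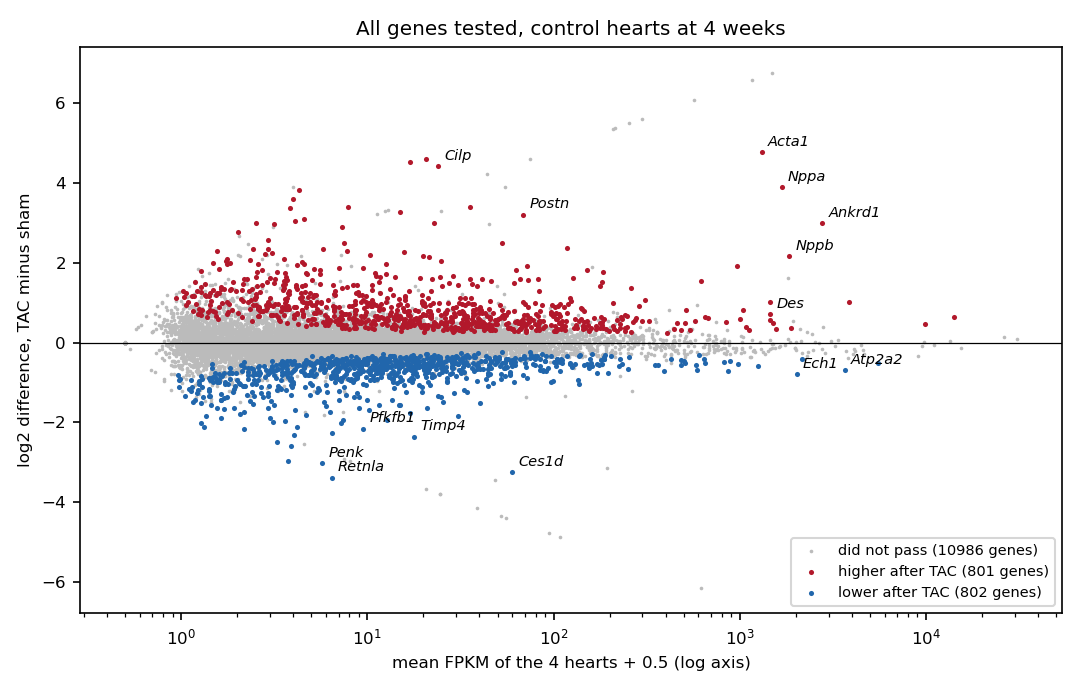
Log2 difference (TAC minus sham, on log2(FPKM + 0.5)) of each tested gene against its mean FPKM over the 4 hearts plus 0.5, on a log axis; red points are the 801 genes higher after TAC, blue points the 802 lower and grey points the rest. Called genes lie at every level of expression, while some grey points with large differences are genes whose hearts of one group disagree.

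The 4 libraries were of similar depth. FPKM summed to 614816 to 681914 per heart, and relative depth, read from the steps between the lowest values, ran from 0.942 to 1.21; total read counts are unknown. The markers of heart muscle were at the levels of myocardium, with Myh6 at 3675 to 4896 FPKM and Tnnt2 at 10024 to 12473 FPKM. The atrial light chain gene Myl7 was listed at 0.359 FPKM in heart 1 and at 0 in the other 3 hearts, so this defining marker of atrial muscle was at or near 0 in the TAC and the sham hearts alike. Of 7 tested atrial markers 2 were higher after TAC, among them Pam, and 2 lower, among them Kcnj3, and their summed FPKM were 434 and 367 in TAC hearts and 234 and 267 in sham hearts. Without any 1 of the 4 hearts 1 was higher and 2 were lower. Esr1 was 0.101 to 0.266 FPKM in the 4 hearts and 529 to 931 FPKM in CKO hearts at 4 weeks, as the genotype labels say. Some genes that every cell uses, such as Eno1, are listed at 0 in all hearts, so a listed 0 is given as such and not read as absence.

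Z-disc and stretch proteins rose in most members. Of 21 tested members 14 were higher after TAC, against 6.36% of all genes, and none was lower, with a median log2 difference of 0.70 beside -0.00 over all genes tested. Xirp2, an actin-binding repeat protein of the intercalated disc, stood at 174 and 208 FPKM in TAC hearts and at 52.96 and 71.1 FPKM in sham hearts (log2 difference 1.62 ± 0.18, SE; limma adjusted p = 0.0001). Fhl1, a LIM protein at the titin spring that takes part in stretch signalling, stood at 283 and 287 FPKM against 77.6 and 88.7 FPKM. Synpo2l, a Z-disc actin-binding protein, stood at 113 and 85.0 FPKM against 32.9 and 31.7 FPKM. In these 3 genes the lower TAC heart was above the higher sham heart by a wide margin.

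Other members of the group rose as well. Myot, which encodes the Z-disc protein myotilin, was 120 and 124 FPKM after TAC and 33.0 and 48.5 FPKM after sham. Ankrd23, a relative of Ankrd1 that binds titin, was 950 and 905 FPKM against 312 and 322 FPKM. Nrap, a scaffold of forming myofibrils, was 273 and 281 FPKM against 140 and 137 FPKM, which is 2.00-fold. Sham heart 7 was the higher of the sham hearts in Myot, and the sham hearts were close together in Ankrd23 and Nrap. Des, which encodes the intermediate filament protein desmin, was 1806 and 1832 FPKM against 1109 and 1093 FPKM, and Csrp3, the muscle LIM protein, was 4998 and 5393 FPKM against 2409 and 2702 FPKM. Both passed (limma adjusted p = 0.000159 and 0.00149) but not in the fit of only the 4 hearts (limma adjusted p = 0.0532 and 0.054). Without heart 1, 2, 6 or 7, between 10 and 11 members were higher, and the fit of only the 4 hearts called 8.

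The sarcomere list moved less in its median, though it holds Acta1, whose log2 difference of 4.78 is given above. Of 19 tested members 6 were higher and none lower, with a median of 0.32, and only 2 or 3 were called without any 1 of the 4 hearts. Myh6, the adult alpha-myosin heavy chain, was 3675 and 4090 FPKM after TAC and 3779 and 4896 FPKM after sham, and did not pass (limma adjusted p = 0.617). Myh7, the fetal beta-myosin heavy chain, was 262 and 196 FPKM after TAC but 22.3 FPKM in sham heart 6 and 164 FPKM in sham heart 7. The sham hearts were far apart. The log2 difference of Myh7, 1.89 ± 1.23 (SE, from the spread in all 10 groups), did not pass (limma adjusted p = 0.348). Actc1, cardiac alpha-actin, rose from 9926 and 12149 FPKM to 15419 and 18967 FPKM (limma adjusted p = 0.0281), a call lost without heart 2 or heart 6 (limma adjusted p = 0.209 and 0.161) and without a filter on low levels (0.126), and in the fit of only the 4 hearts (0.239). Hspb7, a small heat shock protein of the sarcomere, rose from 1011 and 908 FPKM to 2023 and 1846 FPKM (limma adjusted p = 0.00168).

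Channel genes fell. Of 22 tested genes of potassium and sodium channels and gap junctions, 11 were lower after TAC and none was higher, with a median log2 difference of -0.50, and in 21 of the 22 both TAC hearts lay below both sham hearts, as in 28.6% of all genes tested. Kcnd2, a pore subunit of the transient outward current that shortens the mouse action potential, stood at 1.33 and 1.52 FPKM after TAC and at 5.69 and 5.76 FPKM after sham (log2 difference -1.70 ± 0.18, SE; limma adjusted p = 0.0001). Kcnj3, a subunit of the channel that acetylcholine opens and a gene of the atrial list, stood at 7.35 and 6.89 FPKM against 22.4 and 29.0 FPKM. Kcnv2, a modifying subunit of voltage-gated potassium channels, stood at 0.647 and 0.908 FPKM against 3.84 and 4.62 FPKM. Kcnj5, the partner of Kcnj3, stood at 19.5 and 18.7 FPKM against 29.6 and 32.6 FPKM. The 2 hearts of each group agreed closely in these genes, and no group overlapped the other. Scn4b, a sodium channel beta subunit, fell from 22.1 and 21.1 FPKM to 5.53 and 8.71 FPKM (limma adjusted p = 0.00582), a call lost without heart 1 (log2 difference -1.26; limma adjusted p = 0.0681). Without heart 1, 2, 6 or 7 the count of lower channel genes was 6, 6, 8 and 6.

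Genes of calcium handling and adrenergic signalling were called in both directions. Of 16 calcium cycling genes 2 were higher and 4 lower, and of 14 adrenergic genes 1 was higher and 5 lower. The shares over all genes tested were 6.36% higher and 6.37% lower, so the higher adrenergic count was near that share. The calcium cycling list without heart 1, 2, 6 or 7 had 1, 1, 1 and 2 higher genes and 3, 2, 3 and 2 lower ones, and the adrenergic list had 1 higher and 3 lower each time. The fit of only the 4 hearts called 1 lower gene in each list and no higher one. Atp2a2, which encodes the pump SERCA2 that refills the sarcoplasmic reticulum, fell from 4274 and 4811 FPKM to 2826 and 2785 FPKM (log2 difference -0.69 ± 0.10, SE; limma adjusted p = 0.000698). Casq2, which encodes the calcium store protein calsequestrin, rose from 645 and 879 FPKM to 1333 and 1314 FPKM (limma adjusted p = 0.00459). The fit of only the 4 hearts called neither (limma adjusted p = 0.0908 and 0.0854). Adra1b, an alpha-1 adrenergic receptor, was 8.83 and 8.63 FPKM after TAC and 17.8 and 17.7 FPKM after sham, a fall to 0.506 of the sham level (limma adjusted p = 0.00266). Its 2 hearts per group were nearly equal. Cacng6, a calcium channel subunit, was listed at 0 in both TAC hearts and at 1.89 and 1.44 FPKM in the sham hearts.

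Genes of the extracellular matrix rose in several classes, some of them more than 10-fold. Among matricellular proteins, which sit in the matrix and signal to cells, 10 of 17 tested were higher and 1 was lower, with a median log2 difference of 1.65. Among the markers of activated fibroblasts 6 of 11 were higher and none lower, with a median of 2.00. Bulk tissue cannot tell more cells of a type from more RNA per cell, here and in every list below.

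Postn (chromosome 3, 54361109 to 54391037), which encodes periostin of activated fibroblasts, had the smallest p of the matrix genes. It stood at 128 and 119 FPKM in TAC hearts and at 15.2 and 10.9 FPKM in sham hearts (log2 difference 3.21 ± 0.23, SE; limma adjusted p = 1.21e-05). Cilp (chromosome 9, 65265180 to 65280605), which encodes a matrix protein known to dampen TGF-beta signals, stood at 32.4 and 57.9 FPKM against 2.63 and 0.840 FPKM. Thbs4, a thrombospondin induced in loaded muscle and tendon, stood at 21.7 and 31.7 FPKM against 2.09 and 2.40 FPKM. Heart 2 was the higher TAC heart in Cilp and Thbs4, and the lower TAC heart was still several times the higher sham heart.

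Other matricellular genes rose from a range of sham levels. Comp, a thrombospondin of cartilage and tendon, was 0.761 and 0.933 FPKM after sham and 16.0 and 11.6 FPKM after TAC. Spp1, which encodes osteopontin, was 0.0993 and 0.114 FPKM after sham and 6.44 and 7.21 FPKM after TAC. Ctgf, a matricellular target of TGF-beta and of YAP, was 33.3 and 41.5 FPKM after sham and 230 and 163 FPKM after TAC. All 3 passed, with log2 differences of 3.39, 3.59 and 2.37. Meox1, a transcription factor of activated fibroblasts, rose from 11.8 and 7.04 FPKM to 40.7 and 37.8 FPKM (limma adjusted p = 0.000414). Sparc, a collagen-binding protein, rose from 244 and 163 FPKM to 390 and 442 FPKM but did not pass in the fit of only the 4 hearts (limma adjusted p = 0.0761). Without heart 1, 2, 6 or 7 the count of higher matricellular genes was 9, 9, 10 and 8, and that of higher activated fibroblast markers was 6 each time.

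Elastic fibre genes moved in both directions. Of 15 tested, 8 were higher and 2 lower. Mfap4 (chromosome 11, 61485431 to 61488900), a microfibril-associated protein, went from 6.65 and 4.65 FPKM to 70.3 and 58.0 FPKM, and Mfap5, a microfibril glycoprotein, from 17.1 and 13.4 FPKM to 99.6 and 79.1 FPKM. Ltbp2, a latent TGF-beta binding protein of microfibrils, went from 0.301 and 0.475 FPKM to 6.55 and 7.10 FPKM. TAC hearts were at least 4 times the sham hearts in each of these genes. Eln (chromosome 5, 134702593 to 134747323), which encodes elastin, went from 12.8 and 11.9 FPKM to 25.2 and 27.2 FPKM (2.08-fold; limma adjusted p = 0.000234). Efemp1, which encodes the fibulin family protein fibulin-3, went the other way, from 5.603 and 6.72 FPKM to 0.599 and 0.590 FPKM (log2 difference -2.60 ± 0.22, SE; limma adjusted p = 2.67e-05). Without heart 1, 2, 6 or 7 the count of higher genes was 5, 5, 7 and 5.

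Collagens rose in part. Of 20 tested genes 9 were higher and none lower, with a median of 0.70, and in 14 of the 20 both TAC hearts lay above both sham hearts, as in 28.1% of all genes tested. Col8a1, a short-chain collagen that lies beneath endothelium, was 24.4 and 26.98 FPKM after TAC and 5.58 and 4.28 FPKM after sham (log2 difference 2.28 ± 0.29, SE; limma adjusted p = 0.000397). Col5a2, a regulator of collagen fibril diameter, was 14.3 and 17.6 FPKM against 6.41 and 6.38 FPKM. Col8a2, the partner of Col8a1, was 2.03 and 2.72 FPKM against 0.205 and 0.134 FPKM. The chains of the main heart collagens rested on fewer hearts. Col3a1 was 80.5 and 107 FPKM against 59.8 and 41.5 FPKM and Col1a2 40.004 and 58.4 FPKM against 27.3 and 22.1 FPKM. Both passed (limma adjusted p = 0.0175 and 0.00795), but not without heart 2 (0.154 and 0.0946), without heart 7 (0.164 and 0.0826) or in the fit of only the 4 hearts (0.108 and 0.0883). Col1a1 was 23.4 and 36.1 FPKM against 22.2 and 14.3 FPKM and did not pass (limma adjusted p = 0.149). Heart 2 was the highest and heart 7 the lowest heart in each of these 3 genes, and the count of higher collagens without heart 1, 2, 6 or 7 was 8, 4, 8 and 4.

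Of 9 small leucine-rich proteoglycans 4 were higher, and of 14 collagen processing enzymes 6 were higher, with none lower in either list. Bgn, which encodes biglycan, was 257 and 258 FPKM after TAC and 100 and 90.4 FPKM after sham (log2 difference 1.43 ± 0.14, SE; limma adjusted p = 5.67e-05). Fmod, which encodes fibromodulin, was 5.27 and 9.89 FPKM against 0.0455 and 0.0521 FPKM, and Aspn, which encodes asporin, was 37.9 and 41.4 FPKM against 16.1 and 11.8 FPKM. Loxl1, a crosslinking enzyme of elastic fibres, was 26.4 and 29.5 FPKM against 15.5 and 13.1 FPKM, and Pcolce, which helps to trim procollagen, was 60.9 and 69.9 FPKM against 41.4 and 39.0 FPKM. Groups did not overlap in these genes. Lox, the founding crosslinking enzyme, rose from 1.10 and 1.46 FPKM to 5.604 and 4.54 FPKM (limma adjusted p = 0.00626), a call lost without heart 1 (log2 difference 1.51; limma adjusted p = 0.0565). Without heart 2 or heart 7, 3 enzymes were higher.

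Of 14 matrix proteases and inhibitors 5 were higher and 3 lower, and without heart 1, 2, 6 or 7 the counts were 4, 3, 4 and 4 higher and 3, 2, 2 and 2 lower. Timp1 (chromosome X, 20870166 to 20874735) rose from 6.36 and 3.25 FPKM to 37.1 and 42.9 FPKM (log2 difference 2.99 ± 0.39, SE; limma adjusted p = 0.000436). Timp4 (chromosome 6, 115241892 to 115252205), the member that adult heart makes in abundance, fell from 33.9 and 24.6 FPKM to 6.12 and 4.47 FPKM (log2 difference -2.36 ± 0.31, SE; limma adjusted p = 0.000436). The order of the 2 genes was therefore reversed between the groups in every heart. Mmp2, a gelatinase made by fibroblasts, rose from 21.2 and 18.7 FPKM to 34.9 and 39.1 FPKM. Adamtsl2, a microfibril-associated protein of the ADAMTS family without protease activity, rose from 2.58 and 2.46 FPKM to 10.4 and 10.8 FPKM.

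In TGF-beta and activin signalling, 7 of 23 genes were higher and 4 lower. Of the ligands, Tgfb2 rose from 1.81 and 2.29 FPKM to 7.12 and 6.97 FPKM (log2 difference 1.57 ± 0.24, SE; limma adjusted p = 0.00137) and Tgfb3 from 6.52 and 7.26 FPKM to 13.5 and 13.2 FPKM. Fstl1, a secreted follistatin-like glycoprotein, rose from 36.2 and 27.1 FPKM to 98.7 and 79.9 FPKM, and Fstl3, which binds activins, from 2.06 and 1.97 FPKM to 10.4 and 5.69 FPKM. The TAC hearts were nearly equal in both ligands, and heart 1 was the higher of them in both follistatin-like genes. The fit of only the 4 hearts did not call Fstl3 (limma adjusted p = 0.061). Without heart 1, 2, 6 or 7 the count of higher genes was 4, 6, 7 and 4 and that of lower genes was 0, 1, 1 and 1.

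Of 14 general fibroblast markers 4 were higher and 2 lower, and without heart 2 or heart 7 none was lower. Pi16 (chromosome 17, 29317680 to 29330593), a marker of adventitial fibroblasts, was 119 and 107 FPKM after TAC and 31.7 and 26.97 FPKM after sham (log2 difference 1.93 ± 0.15, SE; limma adjusted p = 1.69e-05). Serpinf1, which encodes the secreted protein PEDF, was 47.1 and 50.8 FPKM against 24.9 and 19.8 FPKM. Groups did not overlap in either gene. Outside that list Scara5, a ferritin receptor made by fibroblasts, fell from 10.6 and 11.9 FPKM to 2.75 and 2.35 FPKM, and Penk, which encodes proenkephalin, from 8.41 and 11.0 FPKM to 0.796 and 0.717 FPKM. In both, the sham hearts were several times the TAC hearts. Mgp, an inhibitor of calcification made by fibroblasts and smooth muscle, rose from 408 and 395 FPKM to 1462 and 1580 FPKM. Endothelial markers showed 2 higher of 15, and smooth muscle and pericyte markers 1 higher and 2 lower of 13, shares to be read against 6.36% higher and 6.37% lower over all genes. The endothelial count without heart 1, 2, 6 or 7 was 1, 0, 3 and 0, and the fit of only the 4 hearts called no endothelial gene. The smooth muscle counts were 0, 0, 1 and 0 higher and 1, 2, 1 and 2 lower. The contractile gene Acta2 was 77.0 and 41.9 FPKM after TAC, 80.3 FPKM in sham heart 6 and 258 FPKM in sham heart 7, and did not pass (limma adjusted p = 0.204).

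**Figure D3:**
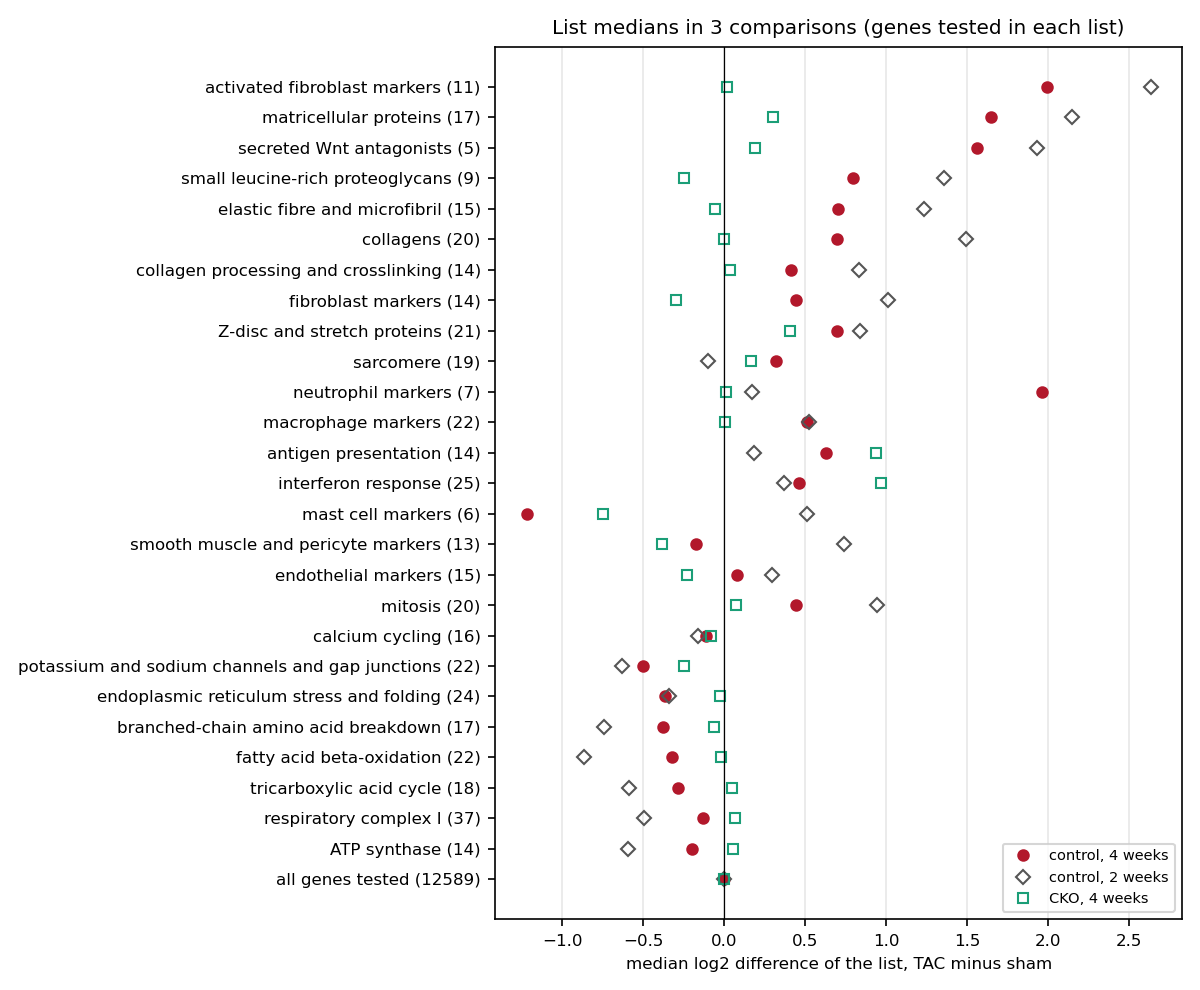
Median log2 difference (TAC minus sham) of the tested members of 26 gene lists and of all genes tested, in control hearts at 4 weeks, control hearts at 2 weeks and CKO hearts at 4 weeks; the number of tested genes is in brackets. Matrix lists lie to the right and metabolic lists to the left in control hearts at both times, farther out at 2 weeks.

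Immune cell genes are given here by cell type. Of 22 macrophage genes 5 were higher and 1 lower, with a median of 0.51, and without single hearts 3 or 4 were higher. Lgals3, which encodes galectin-3, rose from 3.40 and 2.95 FPKM to 15.8 and 17.1 FPKM (log2 difference 2.21 ± 0.35, SE; limma adjusted p = 0.00162). Trem2, a lipid-sensing receptor, rose from 2.19 and 0.627 FPKM to 6.85 and 6.25 FPKM, but did not pass in the fit of only the 4 hearts (limma adjusted p = 0.0819). Retnla, a marker of alternatively activated resident macrophages, fell from 10.8 and 11.7 FPKM to 0.702 and 0.553 FPKM (log2 difference -3.38 ± 0.48, SE; limma adjusted p = 0.000698). Ccl11, the eosinophil attractant eotaxin, fell from 5.02 and 5.11 FPKM to 0.475 and 0.499 FPKM. The 2 hearts of each group lay close together in Retnla and Ccl11.

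Neutrophil genes and most mast cell genes went opposite ways. All 7 tested neutrophil genes were higher in both TAC hearts than in both sham hearts, as were 28.1% of all genes tested, yet 2 passed. S100a8, a subunit of calprotectin, was 30.5 and 31.7 FPKM after TAC, 3.27 FPKM in sham heart 6 and listed at 0 in sham heart 7. S100a9, the other subunit, was 36.7 and 41.6 FPKM against 0.861 and 1.48 FPKM (limma adjusted p = 0.0243). No neutrophil gene was called without heart 1, heart 2 or heart 7 (limma adjusted p of S100a8 0.0905, 0.0929 and 0.187), the fit of only the 4 hearts did not call S100a8 (0.0794), and S100a9 failed whichever of the 4 hearts was left out (limma adjusted p from 0.0915 to 0.112). At 2 weeks the sham hearts of the same genotype held S100a8 at 117 and 13.1 FPKM, one above and one below the TAC hearts of 4 weeks. Of 6 mast cell genes 3 were lower and 0 higher, and their summed FPKM were 4.33 and 5.37 after TAC and 8.86 and 9.60 after sham. Both TAC hearts lay below both sham hearts in 4 of the 6 and above them in 1, whose log2 difference was 1.14. With 0.1 in place of 0.5 added to the FPKM, 4 were lower and 1 higher. Among the lower genes Tpsb2, a tryptase, was 0.778 and 0.245 FPKM after TAC and 2.33 and 1.73 FPKM after sham (limma adjusted p = 0.00459). Tpsb2 was not called without heart 2 (limma adjusted p = 0.0539) or in the fit of only the 4 hearts (0.0907). The count of lower mast cell genes without heart 1, 2, 6 or 7 was 2, 0, 2 and 1, and the fit of only the 4 hearts called 1.

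Antigen presentation and interferon genes were high in TAC heart 2 and not in TAC heart 1. None of 14 antigen presentation genes and none of 25 interferon genes passed in limma, and 0 of either list had an unadjusted p under 0.05, against 28.1% of all genes, although their medians were 0.63 and 0.46. Heart 2 was the highest of the 4 hearts in 14 of 14 and 24 of 25 of them. Summed FPKM of the antigen presentation list were 1094 in heart 1, 2035 in heart 2, 903 in heart 6 and 887 in heart 7. The invariant chain gene Cd74 was 70.9 FPKM in heart 1, 185 FPKM in heart 2, 91.3 FPKM in heart 6 and 103 FPKM in heart 7. Heart 1 thus lay with the sham hearts. Hearts outside this comparison stood high too. Summed FPKM of the antigen presentation list were 6186 in CKO TAC heart 41 against 908 in CKO TAC heart 3 and 1306 and 988 in the CKO sham hearts. In control hearts at 2 weeks they were 1874 in TAC heart 11 and 1862 in sham heart 12 against 1200 in TAC heart 32 and 912 in sham heart 16. Whether this state of heart 2 had a part in other differences of heart 2 from heart 1 was not tested.

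**Figure D4:**
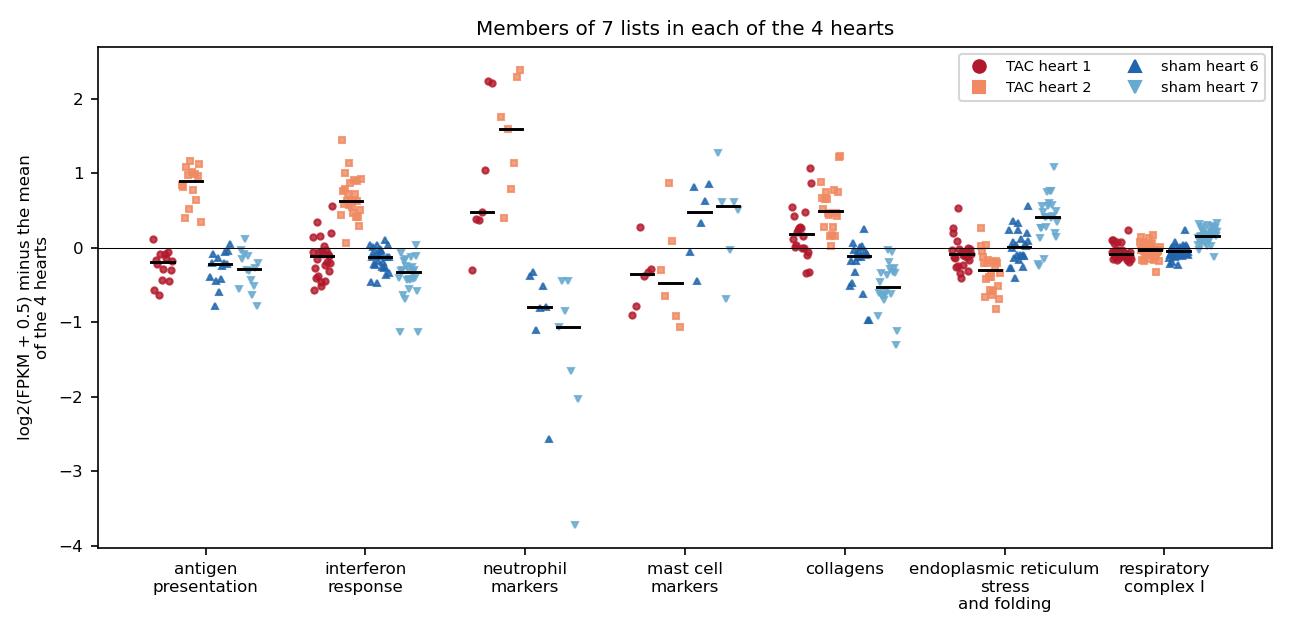
Tested members of 7 gene lists in each of the 4 control hearts at 4 weeks, as log2(FPKM + 0.5) minus the mean of the 4 hearts; each point is a gene and black bars are medians. Heart 2 stands above the other 3 hearts in antigen presentation and interferon genes, and heart 7 is the highest heart for most members of the endoplasmic reticulum and complex I lists.

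Of 22 genes of fatty acid beta-oxidation 7 were lower and none higher, with a median of -0.32, and in 18 of them both TAC hearts lay below both sham hearts, against 28.6% of all genes. With quantile normalization 14 were lower. Ech1, an isomerase of unsaturated fatty acids, was 1432 and 1519 FPKM after TAC and 2297 and 2829 FPKM after sham (log2 difference -0.79 ± 0.11, SE; limma adjusted p = 0.000642). Eci1, another enoyl-CoA isomerase, was 274 and 288 FPKM against 395 and 435 FPKM. Slc27a1, a fatty acid transporter from the list of uptake genes, was 35.8 and 29.3 FPKM against 57.6 and 52.98 FPKM. Groups did not overlap, yet the fit of only the 4 hearts called none of the 3 (limma adjusted p = 0.076, 0.061 and 0.0572) and no beta-oxidation gene at all. Heart 7 was the highest heart in 20 of the 22 genes, and without heart 1, 2, 6 or 7 the count of lower genes was 3, 4, 7 and 2.

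Of 19 genes of fatty acid uptake and activation 6 were lower and none higher, and some of them fell in every alternative. Ces1d (chromosome 8, 93166068 to 93197838), a carboxylesterase that splits stored fat, fell from 79.0 and 138 FPKM to 7.79 and 14.4 FPKM (log2 difference -3.24 ± 0.28, SE; limma adjusted p = 2.67e-05). Dgat2, which makes triglyceride, fell from 189 FPKM in both sham hearts to 117 and 125 FPKM, and Acacb, whose product malonyl-CoA restrains fatty acid entry into mitochondria, from 52.3 and 55.5 FPKM to 34.5 and 34.7 FPKM. Bdh1, which starts ketone use, rose from 102 and 110 FPKM to 187 and 183 FPKM (limma adjusted p = 0.00239). Groups were apart in each of these genes.

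Calls among glycolysis genes went both ways. Pfkp, the platelet form of phosphofructokinase, rose from 16.4 and 18.2 FPKM to 54.1 and 52.4 FPKM (log2 difference 1.59 ± 0.16, SE; limma adjusted p = 7.38e-05). Pfkfb1 (chromosome X, 150588229 to 150643878), which sets the level of the activator fructose 2,6-bisphosphate in liver and muscle, fell from 14.5 and 15.5 FPKM to 2.71 and 3.28 FPKM (log2 difference -2.15 ± 0.16, SE; limma adjusted p = 1.21e-05). Hearts of each group were close in both genes. Slc2a4, the insulin-responsive glucose transporter GLUT4, fell from 191 and 211 FPKM to 136 and 143 FPKM but was not called in the fit of only the 4 hearts (limma adjusted p = 0.0611). In the list of glucose uptake and glycolysis 3 of 22 genes were higher and 4 lower, counts that became 1, 1, 1 and 2 higher and 3, 3, 4 and 2 lower without heart 1, 2, 6 or 7, and 1 of each in the fit of only the 4 hearts.

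Breakdown of branched-chain amino acids was the metabolic list with the most calls, 11 of 17 lower and none higher, with a median of -0.37. Bckdhb, a subunit of the branched-chain ketoacid dehydrogenase, was 36.0 and 39.9 FPKM after TAC and 62.9 and 68.7 FPKM after sham (log2 difference -0.79 ± 0.11, SE; limma adjusted p = 0.000589). Aldh6a1, which acts late in valine breakdown, was 86.8 and 77.4 FPKM against 127 and 141 FPKM. Both were called by the fit of only the 4 hearts, which called 2 of the list. Heart 7 was the highest heart in 16 of the 17 genes, and without heart 1, 2, 6 or 7 the count was 4, 4, 10 and 2. The tricarboxylic acid cycle had 3 lower genes of 18 (1, 0, 4 and 0 without each heart). Respiratory complex I had 0 genes of 37 called by limma, 6 at an unadjusted p under 0.05, 2 called without heart 6 and 0 in the fit of only the 4 hearts. Its median was -0.13, and heart 7 was the highest heart in 31 of the 37. With quantile normalization 12 complex I genes, 13 tricarboxylic acid cycle genes and 14 branched-chain amino acid genes were lower.

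Of 24 genes of endoplasmic reticulum folding and stress 8 were lower and 1 higher, with a median of -0.36. Herpud1, which takes part in the disposal of misfolded proteins, was 69.7 and 62.2 FPKM after TAC, 109 FPKM in sham heart 6 and 155 FPKM in sham heart 7 (limma adjusted p = 0.00186, and 0.0715 in the fit of only the 4 hearts). Atf4, a transcription factor of the integrated stress response, was 104 FPKM in both TAC hearts and 70.9 and 72.3 FPKM in the sham hearts (limma adjusted p = 0.00785). Heart 7 was the highest heart in 19 of the 24, and without heart 1, 2, 6 or 7 the count of lower genes was 6, 1, 13 and 1.

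Thyroid hormone genes moved in both directions. Dio2 (chromosome 12, 90724552 to 90738438), which encodes the deiodinase that makes active hormone, rose from 0.301 and 0.369 FPKM to 5.03 and 3.94 FPKM (log2 difference 2.57 ± 0.23, SE; limma adjusted p = 2.78e-05). Thrb, a thyroid hormone receptor, fell from 5.45 and 6.41 FPKM to 3.19 FPKM in both TAC hearts (limma adjusted p = 0.00214, and 0.0668 in the fit of only the 4 hearts). Klf9, a known target of thyroid and steroid hormones, fell from 37.0 and 38.9 FPKM to 19.4 and 23.0 FPKM (limma adjusted p = 0.00479), a call lost without heart 1 (log2 difference -0.71; limma adjusted p = 0.0542). In all, 1 of 5 tested genes was higher and 3 were lower, or 1 and 2 without any 1 of the 4 hearts.

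Wnt and YAP genes are of interest because the series title places Wnt5a and YAP on one axis. Wnt5a (chromosome 14, 28504750 to 28527448), a secreted ligand of non-canonical Wnt signalling, was lower after TAC, at 2.06 and 1.68 FPKM against 3.87 and 4.11 FPKM (log2 difference -0.93 ± 0.21, SE; limma adjusted p = 0.0113). That call was lost without heart 2 (limma adjusted p = 0.0903), without heart 7 (0.0735) and in the fit of only the 4 hearts (0.061). Of 5 secreted Wnt antagonists 4 were higher, and Frzb, one of the secreted frizzled-related proteins, rose from 1.47 and 1.88 FPKM to 6.31 and 7.16 FPKM (limma adjusted p = 0.000523). The counts of higher antagonists without heart 1, 2, 6 or 7 were 1, 2, 1 and 1. Of 18 genes of the Hippo pathway limma called 0, as did the fit of only the 4 hearts, and 6 had an unadjusted p under 0.05. Of 18 known targets of YAP and TEAD 3 were higher, namely Ankrd1, Ctgf and Tgfb2 as given above, and 4 lower, among them Crim1, a membrane protein that binds bone morphogenetic proteins, at 6.81 and 6.75 FPKM against 10.5 and 9.37 FPKM (limma adjusted p = 0.0043, and 0.0947 in the fit of only the 4 hearts). The fit of only the 4 hearts called 3 higher targets and 0 lower ones. Some of the lower calls also depended on single hearts.

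A few more of the largest changes rested on uneven hearts. Acot1, a thioesterase that frees fatty acids from coenzyme A, was 1.52 and 3.44 FPKM after TAC and 11.5 and 10.3 FPKM after sham. It was called (limma adjusted p = 0.00465) but not without heart 1 (0.0595) or in the fit of only the 4 hearts (0.0581). Nmb, which encodes the peptide neuromedin B, was 2.50 and 1.09 FPKM against 9.78 and 10.4 FPKM, and its call (limma adjusted p = 0.00468) was lost without heart 2 (0.0582). Heart 1 was the lower TAC heart in Acot1 and the higher in Nmb, and the sham hearts were close in both. Sbk2, a kinase of striated muscle, was 0.441 and 1.39 FPKM against 5.70 and 6.67 FPKM (limma adjusted p = 0.00118, and 0.0532 in the fit of only the 4 hearts). Inmt, an amine methyltransferase, was 6.22 and 3.57 FPKM against 19.8 and 19.3 FPKM, and its call (limma adjusted p = 0.0193) was lost without heart 2, 6 or 7 (0.15, 0.0796 and 0.0924). Serpinb1c, a serpin, was 5.02 and 2.95 FPKM after TAC and was listed at 0.0866 and 0 FPKM after sham. Ccl12, a chemokine that draws monocytes, was 9.60 and 13.2 FPKM after TAC, 4.41 FPKM in sham heart 6 and listed at 0 in sham heart 7, and its call (limma adjusted p = 0.0198) was lost without heart 1, 2 or 7 (0.0708, 0.116 and 0.153) and in the fit of only the 4 hearts (0.192).

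Other large falls belonged to no group above. Ano10 (chromosome 9, 122175874 to 122294423), a member of the anoctamin family of membrane proteins, fell from 45.7 and 49.8 FPKM to 13.1 and 12.7 FPKM (log2 difference -1.85 ± 0.15, SE; limma adjusted p = 1.69e-05). Enpp2, which encodes autotaxin, the enzyme that makes lysophosphatidic acid, fell from 7.03 and 6.597 FPKM to 1.83 and 1.39 FPKM. Klhl33, a Kelch protein, fell from 4.24 and 6.24 FPKM to 0.688 and 1.24 FPKM, and Fbxo31, a subunit of a ubiquitin ligase, from 27.2 and 29.0 FPKM to 14.5 and 15.9 FPKM. In these 4 genes the groups were apart by more than the distance within either group. Cenpf, which encodes a centromere protein, fell from 4.40 and 4.55 FPKM to 0.778 and 0.731 FPKM and was the only one of 20 mitosis genes called. The median of that list was 0.44, and both TAC hearts lay above both sham hearts in 13 of its genes and below them in 2. Over all genes tested the shares were 28.1% above and 28.6% below.

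The 2 TAC hearts differed from each other in some of the genes called. They also differed in red blood cell markers, of which 0 of 4 tested were called. Their summed FPKM were 2157 in heart 1, 748 in heart 2, 1223 in heart 6 and 1113 in heart 7. Over all called genes the median absolute log2 difference was 0.138 between hearts 1 and 2 and 0.151 between hearts 6 and 7. Among called genes of at least 5 FPKM in TAC hearts, Sprr1a, a cornified envelope protein known to be induced in stressed heart muscle, differed most, at 12.2 FPKM in heart 1 and 3.34 FPKM in heart 2 against 0.414 and 0.237 FPKM in sham hearts. Edn3, which encodes endothelin-3, was 12.1 FPKM in heart 1 and 6.27 FPKM in heart 2 against 1.09 and 1.60 FPKM, and its call (limma adjusted p = 0.0173) was lost without heart 1, 6 or 7 (0.142, 0.0924 and 0.0641). Wisp2, a matricellular protein of the CCN family, was 24.2 FPKM in heart 1 and 10.7 FPKM in heart 2, and the acute-phase gene Serpina3n 45.0 and 22.2 FPKM. Fmod and Cilp went the other way, with heart 2 the higher. The fit of only the 4 hearts called neither Sprr1a, Wisp2 nor Serpina3n (limma adjusted p = 0.0695, 0.114 and 0.0867). Wisp2 was also not called without heart 1 or 7 (limma adjusted p = 0.201 and 0.156), and Serpina3n not without heart 1, 6 or 7 (0.245, 0.0778 and 0.166) or without a filter on low levels (0.0568).

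The response at 4 weeks was then set against that at 2 weeks in control hearts. At 2 weeks 2998 genes (23.8%) passed, 11.0% higher and 12.8% lower, and 1618 to 2303 passed without any 1 of the 4 hearts of that time. That TAC heart 11 and sham heart 12 stood high in antigen presentation is given above, and its part in the 2 week values was not tested. Those 2 hearts were in turn left out of the counts just given. Of the 801 genes higher at 4 weeks 511 were also higher at 2 weeks, which is 63.8% of the rises at 4 weeks and 36.9% of those at 2 weeks, and of the 802 lower genes 509 were lower at 2 weeks (63.5% and 31.6%). The median log2 difference at 2 weeks was 0.65 over the 801 genes and -0.59 over the 802, which were chosen by their values at 4 weeks. The test of the difference between the responses called 1 gene of 12589 (0.00794%), while 1718 genes (13.6%) had an unadjusted p under 0.05.

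That gene was Eln. At 2 weeks it stood at 65.7 and 65.8 FPKM in TAC hearts and at 9.91 and 9.98 FPKM in sham hearts, a log2 difference of 2.67. At 4 weeks the TAC hearts were lower and the sham hearts slightly higher than at 2 weeks. The response at 4 weeks was smaller by 1.61 on the log2 scale (-1.61 ± 0.18, SE; limma adjusted p = 0.0055). It did not pass without TAC heart 32 (limma adjusted p = 0.0513), without sham heart 12 (0.0504) or without the hearts of the series whose Myl7 was at least 10 FPKM (0.0982), one of which was the 2 week TAC heart 11 at 72.6 FPKM. Another was the 2 week sham heart 16, with Myl7 at 32.2 FPKM, so leaving these hearts out left a lone heart in each control group at 2 weeks. The part of the hearts with high Myl7 in the 2 week values was not tested.

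Whole lists differed in count between the times without a gene passing the test of the difference. Collagens had 20 of 20 genes higher at 2 weeks, with a median of 1.49 (17 without any 1 heart of that time), and 9 of 20 at 4 weeks, with a median of 0.70. In the test of the difference none of the 20 passed, 15 had an unadjusted p under 0.05, and the smallest adjusted p was 0.11. Complex I had 34 of 37 genes lower at 2 weeks, with a median of -0.49 (23 to 26 without any 1 heart of that time), and none at 4 weeks; in the difference none passed, 27 had an unadjusted p under 0.05, and the smallest adjusted p was 0.15. With quantile normalization 12 complex I genes were lower at 4 weeks, as given above. Z-disc proteins had 14 of 21 genes higher at both times. Nppa was 9118 and 10098 FPKM in TAC hearts at 2 weeks, and the difference of its responses did not pass (limma adjusted p = 0.288). Tpsb2 rose at 2 weeks, from 0.798 and 0.865 FPKM to 2.66 and 2.16 FPKM, and its responses differed by -2.49 ± 0.37 (log2, SE; limma adjusted p = 0.0624), which did not pass.

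The response of control hearts at 4 weeks was last set against that of CKO hearts. In CKO hearts TAC changed 33 genes (0.262%) against 1603 in controls. CKO TAC heart 41 stood apart from the other CKO hearts at 4 weeks. Its summed FPKM were 2415 over interferon genes, against 269 in CKO TAC heart 3 and 389 and 324 in the CKO sham hearts, and 122 over red blood cell markers, against 1206, 1456 and 1472. Without heart 41 limma called 48 genes in CKO hearts, without CKO TAC heart 3 88, and without CKO sham hearts 4 and 8 21 and 0 (938 at an unadjusted p under 0.05 without heart 8). Of the 801 genes higher in controls 16 passed in CKO hearts, and their median log2 difference there was 0.17 against 0.72 in the control hearts that chose them; of the 802 lower genes 10 passed, with a median of -0.21. The test of the difference between the responses called 94 genes (0.747%), of which 68 (0.54%) had the smaller log2 value in CKO hearts and 26 (0.207%) the larger. In the fit over all groups 1547 genes (12.3%) had an unadjusted p under 0.05, and the fit of only the 8 hearts called 0 genes. Leaving out single hearts left 20 to 121 calls, 20 without CKO sham heart 8, 24 without control sham heart 7, 38 and 40 without control TAC hearts 2 and 1, and 41 without CKO TAC heart 41. Without the hearts with Myl7 of at least 10 FPKM 29 were called.

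Of 102 tested genes in 7 lists of the extracellular matrix 19 passed and 53 had an unadjusted p under 0.05, and the log2 difference was lower in CKO than in control hearts in 86. Without CKO sham heart 8, control sham heart 7, control TAC heart 2 or CKO TAC heart 41 the matrix count was 5, 7, 8 and 8, without the hearts with Myl7 of at least 10 FPKM it was 9, and the fit of only the 8 hearts called 0. Of the 19, 18 were among the 44 genes higher in controls, a choice that rests on the same control hearts. Of 42 genes of the sarcomere, the Z-disc and the natriuretic peptides 0 passed and 8 had an unadjusted p under 0.05, and the CKO response was the lower in 31. Whether matrix and muscle genes differed in this respect was not tested. Ankrd1 was 2518 and 2228 FPKM in CKO TAC hearts and 649 and 468 FPKM in CKO sham hearts, a log2 difference of 2.103 that passed (limma adjusted p = 0.0142) and that differed from the control response by -0.90 ± 0.39 (SE; limma adjusted p = 0.361). Acta1 was 1759 and 1007 FPKM against 132 and 229 FPKM in CKO hearts, and its response differed by -1.85 ± 0.89 (SE; limma adjusted p = 0.427).

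Of the 10 genes with the smallest p for the difference 9 are given here, most of them genes of fibroblasts and matrix. Postn was 44.6 and 23.5 FPKM in CKO TAC hearts and 21.5 and 22.3 FPKM in CKO sham hearts, so that CKO sham hearts lay above control sham hearts and CKO TAC hearts far below control TAC hearts. Mfap4 was 19.5 and 12.5 FPKM in CKO TAC hearts against 12.2 and 18.1 FPKM, Pi16 59.3 and 43.4 FPKM against 43.7 and 47.7 FPKM, and Mgp 525 and 352 FPKM against 493 and 500 FPKM. In these 3 genes the CKO groups overlapped. The response was smaller in CKO hearts by 2.65 ± 0.33 for Postn, 3.34 ± 0.45 for Mfap4, 1.78 ± 0.22 for Pi16 and 2.13 ± 0.30 for Mgp (log2, SE; limma adjusted p = 0.007, 0.007, 0.007 and 0.00788). Mfap5, Tgfb3, Eln and Ppic, a secretory pathway cyclophilin, also passed, with differences of -2.17, -1.25, -1.41 and -1.004. Tmem29, of a membrane protein family, went the other way: it fell in controls from 3.06 and 3.30 FPKM to 1.54 and 2.05 FPKM and rose in CKO hearts from 1.82 and 1.92 FPKM to 3.74 and 3.53 FPKM (difference 1.495 ± 0.21; limma adjusted p = 0.00769). In controls Tmem29 was not called without heart 1 or 7 (limma adjusted p = 0.084 and 0.0599) or in the fit of only the 4 hearts (0.11). In the fit of only the 8 hearts the limma adjusted p of these 9 differences was 0.0907 to 0.121. Each of them passed in every other alternative that tested it.

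Outside the matrix a few genes named above also differed between the genotypes. Dio2 was 0.793 and 0.436 FPKM in CKO TAC hearts and 0.349 and 0.282 FPKM in CKO sham hearts, and its response was smaller by 2.14 ± 0.32 (log2, SE; limma adjusted p = 0.00919). Ces1d was 58.1 and 57.9 FPKM against 75.1 and 102 FPKM, so its fall was smaller in CKO hearts by 2.65 ± 0.40 (limma adjusted p = 0.00919). Both lost the call in the fit of only the 8 hearts (limma adjusted p = 0.108 and 0.154), and Ces1d also without the hearts with Myl7 of at least 10 FPKM (0.0532). Wnt5a, the floxed gene, was 1.57 and 0.853 FPKM in CKO TAC hearts and 2.14 and 2.02 FPKM in CKO sham hearts, and its response did not differ beyond the error (0.30 ± 0.30; limma adjusted p = 0.747).

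**Figure D5:**
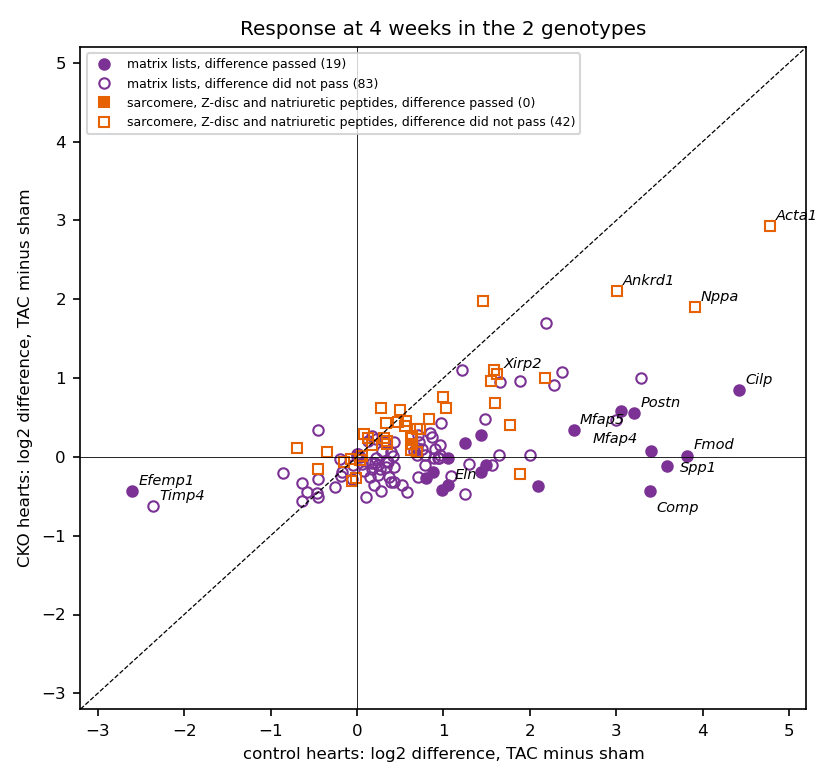
Log2 difference (TAC minus sham at 4 weeks) in CKO hearts against that in control hearts for 102 genes of 7 matrix lists (circles) and 42 genes of the sarcomere, Z-disc and natriuretic peptide lists (squares); filled symbols passed the test of the difference and the dashed line marks equal responses. Matrix genes that passed, such as Mfap4, Fmod and Postn, lie far below the line, Efemp1 lies above it, and Acta1 and Ankrd1 lie above 2 on both axes.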

How the data were processed

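Total RNA of 20 mouse hearts was sequenced as polyadenylated, stranded libraries, per the labels' protocols. FPKM per gene were deposited by the authors; the submitters' processing notes name TopHat2 2.1.1, Bowtie2 and Cuffdiff 2.2.1 and the build mm10. Those FPKM were put on the scale log2(FPKM + 0.5) after deposit, for genes averaging 0.5 FPKM or more across hearts. One limma model (limma 3.58.1, R 4.3.3) with a mean for each of 10 groups of 2 hearts and a trend in the prior variance gave 10 residual degrees of freedom, a median prior of 3.81, and moderated tests with Benjamini-Hochberg adjustment over 12589 genes at 0.05. The same model tested the difference between responses. FPKM hold no read counts, so no counting interval is given. Alternatives changed the pseudocount, the filter, the scaling, the prior, the groups fitted and the hearts left out. Leaving out hearts of the 2 week and the CKO comparison was added after seeing the data. The genes compared, the gene lists and the rule for named genes (the 20 largest rises and falls of at least 1 FPKM, list members, the 10 smallest p per difference, and the 10 called genes of at least 5 FPKM whose TAC hearts differed most) were chosen with earlier results of these data known. Positions are from GENCODE M21, promoters from RefSeq. Results of some genes are not reported here.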

Additional observations from a re-analysis of the deposited data

Results flagged for a closer look

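The TAC response of Eln differed between 4 and 2 weeks in control hearts by -1.61 ± 0.18 (log2, SE; limma adjusted p = 0.0055). It was larger at 2 weeks, and higher after TAC in both TAC hearts at either time.

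Between genotypes at 4 weeks, the responses of these genes differed by a test of the difference itself (CKO minus control, log2, limma adjusted p under 0.05). In matrix and fibroblast genes the difference was -2.65 for Postn, -3.34 for Mfap4, -2.17 for Mfap5, -1.41 for Eln, -1.78 for Pi16, -2.13 for Mgp, -1.25 for Tgfb3 and -1.004 for Ppic. Dio2 differed by -2.14. The responses of Ces1d and Tmem29 differed in the other direction, by 2.65 and 1.495. In a fit of only the 8 hearts none of these differences passed.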

How the results depend on the processing

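The 1603 calls of TAC against sham in control hearts at 4 weeks became 355 in a fit of only the 4 hearts and 660 to 1053 without 1 of the 4 hearts, and ranged from 1303 to 1653 under the other alternatives (pseudocount 0.1 or 1, no filter or a mean of at least 3 FPKM, median-ratio scaling, quantile normalization, no trend, and without the hearts with Myl7 of at least 10 FPKM). No called gene changed direction, which leaving out 1 of the 4 hearts could not have brought about, since the groups did not overlap in any called gene. The 1 call for the difference between 4 and 2 weeks became 2 in the fit of only those groups, 3 with no filter, 2 with quantile normalization, 2 without the hearts with Myl7 of at least 10 FPKM, and 0 to 9 without single hearts. The 94 calls for CKO minus control became 0 in the fit of only those groups, 29 without the hearts with Myl7 of at least 10 FPKM, and 20 to 121 without single hearts. Without single hearts, an alternative chosen after seeing the data, the 2998 calls at 2 weeks became 1618 to 2303 and the 33 calls in CKO hearts 0 to 88. The fit of only the groups compared has fewer hearts behind its estimate of the spread; the cause of the other changes was not tested. Of 105 named genes called at 4 weeks, 71 passed under every alternative that tested them. The filter of a mean of at least 3 FPKM left out genes of lower level. Directions turned for 3 values that had not passed, when single hearts were left out: the log2 difference of Cd74 ranged from -0.45 to 0.93, that of Myh6 from -0.34 to 0.037, and the CKO minus control difference of Wnt5a from -0.00596 to 0.61. No paired analysis was possible because every heart number in the labels occurs once and no number is shared between groups. Groups of 2 hearts limit the precision, and where a heart was left out the lone heart of its group was assumed to vary like the others.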
